A study of Mus musculus with 12 samples.

Results

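The enzymes described here oxidise, reduce, conjugate or hydrolyse foreign compounds, retinoids and aldehydes. They are the protein-coding genes of the count table whose symbols belong to the cytochrome P450 (Cyp), aldehyde dehydrogenase (Aldh), alcohol dehydrogenase (Adh), glutathione S-transferase (Gst), sulfotransferase (Sult), UDP-glucuronosyltransferase (Ugt), flavin monooxygenase (Fmo) and epoxide hydrolase (Ephx) families. The rule used gene names and no measured value, and it found 186 of the 32761 genes in the table. These families were themselves chosen with earlier results of these data known. RNA was sequenced from corneal endothelium, the pumping monolayer on the inner face of the cornea, of mice homozygous for the Q455K change in the collagen VIII chain gene Col8a2 and of wild-type mice. The change models Fuchs endothelial corneal dystrophy, and the study asked which transcripts differ in its early and late phases. There were 4 groups of 3 biological replicates: early wild type and early mutant, from mice of at most 2 months, and late wild type and late mutant, from mice of at least 8 months. All early libraries were in batch 1 and all late libraries in batch 2 of the labels, and age therefore cannot be told apart from batch, while each genotype comparison lies within a batch. The sources used here do not give strain, sex or the number of animals behind a library.

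Foreign compounds are commonly handled in phases. Cytochromes P450 and flavin monooxygenases add oxygen, and glutathione, sulfate or glucuronic acid is then attached by the Gst, Sult and Ugt enzymes. Retinol is oxidised to retinal by alcohol and retinol dehydrogenases and then to retinoic acid by the Aldh1a enzymes, and Cyp26 enzymes break retinoic acid down. Aldehyde dehydrogenases also remove the reactive aldehydes that light and lipid peroxidation produce, and Aldh3a1 is known as a highly abundant soluble protein, or crystallin, of the mammalian cornea.

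Total counts ran from 19722598 to 39431676 per library, so 3 counts correspond to 0.0773 to 0.132 CPM (counts scaled to library size, here after TMM scaling between libraries). The enzymes took 0.890% to 1.21% of all counts. Markers of corneal endothelium were abundant in every library, and Col8a2 itself did not pass the test between genotypes at either stage (log2 fold change -0.32 ± 0.32 (SE) early and -0.08 ± 0.32 late). Other cell types were represented too: 8 of 12 macrophage markers were higher in mutants early and 10 of 12 late, with a summed FPKM (the authors' level, scaled by gene length and library size) of 253 to 575 in early mutants and 414 to 535 in late mutants against 36.4 to 58.5 and 47.2 to 56.1 in the wild types. Among 11 keratocyte markers other than Aldh3a1, 4 were higher early, and late 6 were higher and 1 was lower. Photoreceptor markers were higher in mutants too, with 3 of 12 passing early, 0 late and 9 averaged over stages, and a summed FPKM of 79.8 to 163 in early mutants and 55.8 to 166 in late mutants against 22.1 to 40.6 and 46.5 to 57.5 in the wild types. Of 12 lens markers tested, 0 passed early and 3 were higher late. All 12 were below 0 early, while late 9 were above 0 and 3 below. Averaged over stages 1 passed, lower in mutants. The summed FPKM of the lens markers overlapped late (1293 to 1396 in mutants, 1192 to 1921 in wild types). Early it was 969 to 1352 in mutants and 1297 to 1893 in wild types. Of 14 corneal epithelium markers, 0 passed at either stage or averaged over stages. Their summed FPKM was highest in early mutant replicate 2 (430), late mutant replicate 2 (406) and late wild type replicate 3 (395), against 168 to 350 elsewhere. Of 7 pigment cell markers tested, 0 passed at either stage, and 6 were higher early at an unadjusted p of 0.05. Of the 7 hepatocyte markers, Alb, Fgb, Ahsg and Serpina1a had a mean of 0.147 FPKM or less, Apoa1 1.04, Apoa2 1.43 and Ttr 11.98 FPKM, and none of the 4 tested passed. The part of these cell types in the enzyme values was not tested. In bulk tissue, fewer cells of a type and less RNA per cell cannot be told apart.

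The low-count filter left 87 of the 186 enzymes for testing. The tested genes were 20 of 23 Gst, 7 of 9 genes of retinoic acid synthesis, 2 of 3 of retinoic acid clearance, 6 of 7 aldehyde-clearing dehydrogenases, all 9 aldehyde dehydrogenases of intermediary metabolism, both Adh6 genes, 24 of 72 cytochromes P450 of families 1 to 4 and 6 of 14 of families 5 and above, 5 of 17 Sult, 2 of 4 Ephx, 3 of 7 Fmo and 1 of 19 Ugt. Of the 99 enzymes not tested, 15 never exceeded 3 counts in a library and 52 never exceeded 10. Early wild type replicate 2, the shallowest library, held the highest CPM for 72 of these 99 genes, and 96 of them had a count there. The same library held the highest level of 61.3% of all genes removed by the filter.

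Per gene length, Aldh3a1 led the enzymes with a mean of 1552 ± 395 FPKM (SD, n = 12 libraries), ranging from 850 to 2211. It alone made up 11.3% to 35.1% of the enzymes' summed FPKM. Gstm1, a mu-class transferase, followed with 1072 ± 289 FPKM. The order was the other way round in late wild type replicates 2 and 3, where Gstm1 had 1409 and 1515 FPKM and Aldh3a1 968 and 850. Adh1, a cytosolic alcohol dehydrogenase that accepts retinol, had 540 ± 147, Gstt1 520 ± 97.1, Gstp1 500 ± 104, Gstm2 481 ± 113 and Gsto1 444 ± 247 FPKM; these 5 neighbours in the order do not differ beyond their spread. Gsta4, which conjugates the lipid peroxidation product hydroxynonenal, had 310 ± 83.0, and Ephx1, the microsomal epoxide hydrolase, 188 ± 46.5 FPKM. The tenth was Gstm5 with 156 ± 31.1 FPKM. Apart from Aldh3a1, Adh1 and Ephx1, the 10 most abundant enzymes were all glutathione transferases.

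**Figure D1:**
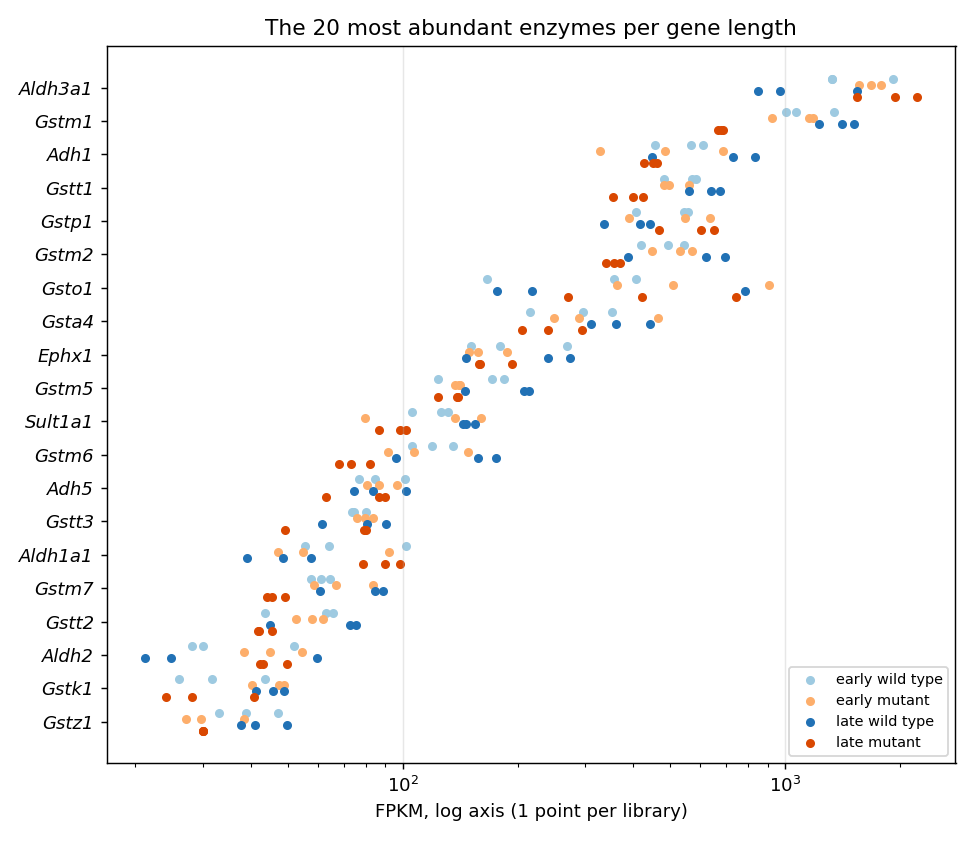
FPKM of the 20 enzymes with the highest mean, on a log axis, with 1 point for each of the 12 libraries coloured by group. Aldh3a1 and Gstm1 lead, and the late mutant points of Gstm1 lie below all its other points.

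Other families were much lower. The most abundant cytochrome P450 of families 1 to 4 was Cyp2f2 with a mean of 27.3 FPKM, and that of families 5 and above was Cyp39a1, an oxysterol hydroxylase, with 8.97 FPKM. Sult1a1, a phenol sulfotransferase, reached 123 FPKM, and the leading flavin monooxygenase, Fmo1, 2.73 FPKM. Both Cyp26 genes tested were low, Cyp26a1 with a mean of 0.167 FPKM and Cyp26b1 with 0.109 over all libraries and 0.220 in late mutants. The classic target of the aryl hydrocarbon receptor, Cyp1a1, never exceeded 8 counts in a library. The glucuronosyltransferases Ugt1a6a and Ugt1a7c never exceeded 7 and 8 counts, and since Ugt1a genes share exons their reads are uncertain. The only Ugt tested, Ugt2b5, had at most 14 counts.

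At the early stage no enzyme passed the threshold, an adjusted p of 0.05 in edgeR's quasi-likelihood test with adjustment over all 17965 genes tested. Over all genes the share called early was 0.59%. At an unadjusted p of 0.05, 3 enzymes were higher and 3 lower in mutants. DESeq2's Wald test and limma-voom also called 0 enzymes early, whereas edgeR without the filter on low counts called Adh7 and Gsto1, both higher. Without that filter 361 of all 32761 genes were called early. The median log2 fold change was -0.08 for the enzymes and -0.11 for all genes tested. The libraries of the genotypes did not overlap for 17 of the 87 enzymes (19.5%), beside 21.9% of all genes.

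At the late stage 10 of the 87 enzymes passed. Aldh1a3, Aldh3b1, Cyp26b1 and Cyp2u1 were higher in mutants (4.6% of those tested, beside 2.77% of all genes), and Gstm1, Gstm6, Gstm7, Gstt1, Sult2b1 and Aldh9a1 were lower (6.9%, beside 2.71% of all genes). The libraries did not overlap for 33 enzymes (37.9%, beside 25.9% of all genes), 15 higher and 18 lower. The median log2 fold change was -0.21 for the enzymes and 0.00 for all genes. The count depended on single libraries. It was 1 enzyme without late mutant replicate 1, late mutant replicate 3 or late wild type replicate 2, 3 without early mutant replicate 1, early mutant replicate 3 or late mutant replicate 2, 4 without early mutant replicate 2 or late wild type replicate 3, and 27 without late wild type replicate 1. The mean chi-square per gene, a measure of how far counts differ beyond sampling noise, was 235 and 237 between that library and the other late wild types and 59.1 between those. Between replicates of the other groups it ran from 48.1 to 125. Fitted on the late libraries alone, only Gstm1 and Sult2b1 passed, beside 489 of all 16257 genes. Calls over all genes moved too, from 983 of 17965 in the main analysis. They were 229, 238 and 306 in the fits with 1 enzyme, and 364 to 662 in those with 3 or 4. Without late wild type replicate 1 they were 3909 of 19241.

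**Figure D2:**
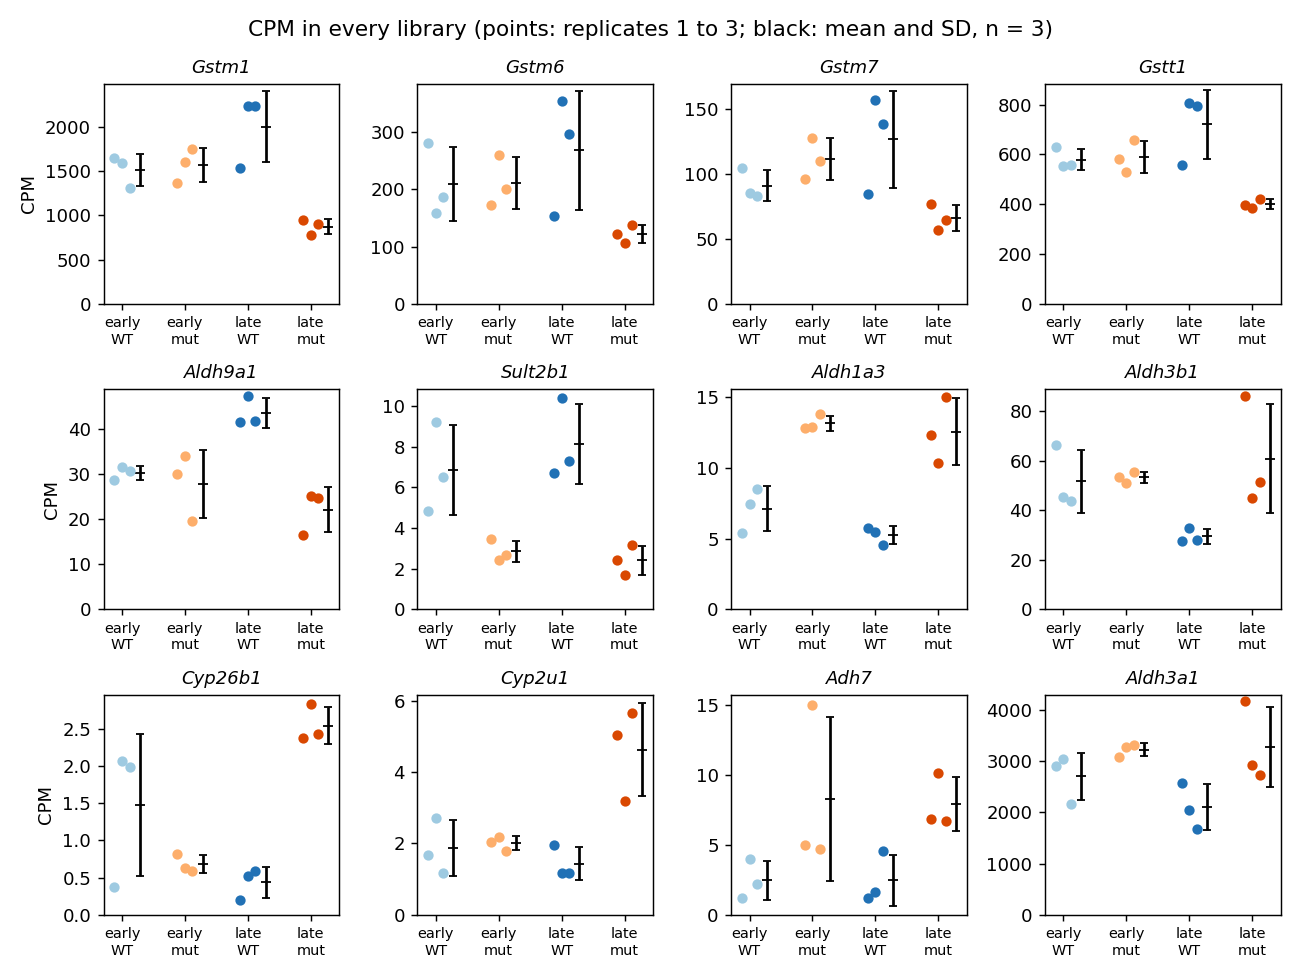
CPM in each of the 12 libraries for the 10 enzymes past the threshold late, for Adh7 and for Aldh3a1, with points for the replicates and black bars for the mean and SD (n = 3). In all 12 panels the late mutant and late wild type points do not overlap.

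The glutathione transferases held the largest number of late calls, 4 of 20 tested (20%), all lower in mutants, beside 2.71% of all genes. Gstm1 had 1537, 2236 and 2239 CPM in late wild types and 944, 778 and 900 CPM in late mutants. Early, its wild types had 1647, 1592 and 1308 CPM and its mutants 1365, 1601 and 1747 CPM. The late groups did not overlap, while the early groups did. Gstm1 fell 2.29-fold late (log2 fold change -1.20 ± 0.24, adjusted p = 0.0101), against 0.05 ± 0.24 early (adjusted p = 0.944). It passed in 19 of 21 alternative analyses, and was lost without late mutant replicate 2 or 3, with adjusted p over all alternatives from 4.01e-05 to 0.0659.

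Of the 7 mu-class genes, 5 had all late mutants below all late wild types, namely Gstm1, Gstm2, Gstm3, Gstm6 and Gstm7. Gstm2 was barely apart, with 361.2 CPM in the highest late mutant and 364.9 CPM in the lowest late wild type. Gstm3 had at most 1.01 CPM in any library. Over all genes, 25.9% had no overlap late, in either direction. Gstm6 had 153, 355 and 297 CPM in late wild types and 122, 105 and 138 CPM in late mutants, and fell 2.2-fold (log2 fold change -1.14 ± 0.31, adjusted p = 0.0388). Gstm7 had 84.6, 157 and 139 CPM in late wild types and 77.0, 57.1 and 64.7 CPM in late mutants, and fell 1.91-fold (-0.93 ± 0.27, adjusted p = 0.0468). Late wild type replicate 1 was the lowest wild type library for both genes and lay closest to the mutants. Gstm6 passed in 11 and Gstm7 in 7 of 21 alternatives, with adjusted p up to 0.155 and 0.181. Gstm2 (-0.87 ± 0.29, adjusted p = 0.0734) and Gstm5 (-0.68 ± 0.29, adjusted p = 0.134) did not pass, nor did the scarce Gstm3, and Gstm4 stood at 0.22 ± 0.31. The 7 mu-class genes form a single run of neighbours in the RefSeq gene order, 6 of them were below 0 late, and their median was -0.93 late and 0.02 early. Their summed level was 1263 to 1324 FPKM in late mutants, 1925 to 2600 in late wild types, 1668 to 2108 in early mutants and 1889 to 2064 in early wild types. Mu-class genes are close paralogs, so reads could be split between them by the counting.

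Of the theta class, Gstt1 had 559, 808 and 794 CPM in late wild types and 398, 383 and 421 CPM in late mutants. It fell 1.8-fold (-0.85 ± 0.24, adjusted p = 0.0421) with no overlap, and passed in 7 of 21 alternatives, with adjusted p up to 0.161. Early its groups overlapped and the log2 fold change was 0.02 ± 0.23. Gstt2 (-0.76 ± 0.31) and Gstt3 (-0.31 ± 0.26) were below 0 late without passing. In the alpha class Gsta4 had 272, 401 and 457 CPM in late wild types and 203, 233 and 222 CPM in late mutants without passing (-0.78 ± 0.27, adjusted p = 0.0831). Gstz1, which also isomerises maleylacetoacetate in tyrosine breakdown, stood at -0.69 ± 0.28 late (adjusted p = 0.127), and Gstp1 at 0.38 ± 0.25 (adjusted p = 0.331).

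Over the 20 transferases tested, 14 were below 0 late with a median of -0.70, and 14 were above 0 early with a median of 0.07. Gsto1, an omega-class enzyme that acts as a thioltransferase, had 460, 1079.8 and 648 CPM in early mutants and 234, 417 and 376 CPM in early wild types without passing (1.09 ± 0.52, adjusted p = 0.571). Late, its libraries ranged from 190 to 996 CPM in wild types and from 328 to 727 CPM in mutants, so the groups overlapped. The omega class had its highest summed FPKM in early mutant replicate 2 (909), late wild type replicate 3 (786) and late mutant replicate 2 (747). Those libraries also led in summed corneal epithelium markers, whose part was not tested. Gstk1, a mitochondrial and peroxisomal transferase, had its groups apart at both stages in opposite directions, 0.53 ± 0.28 early and -0.71 ± 0.28 late, with neither passing. The summed FPKM of the 12 corneal endothelium markers was also lower in late mutants (28080 to 44337) than in late wild types (47884 to 55000.0), with 1 of the 12 passing, Atp1b1, lower. Early, this sum was lower in mutants as well (33642 to 38173, against 39364 to 58037 in wild types), with 0 of the 12 passing. By gene the markers were mixed: 7 of 12 were above 0 early (median log2 fold change 0.20) and 5 of 12 late (median -0.20). Averaged over stages, 1 passed, higher in mutants. The part of cell composition in the Gst values was not tested.

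**Figure D3:**
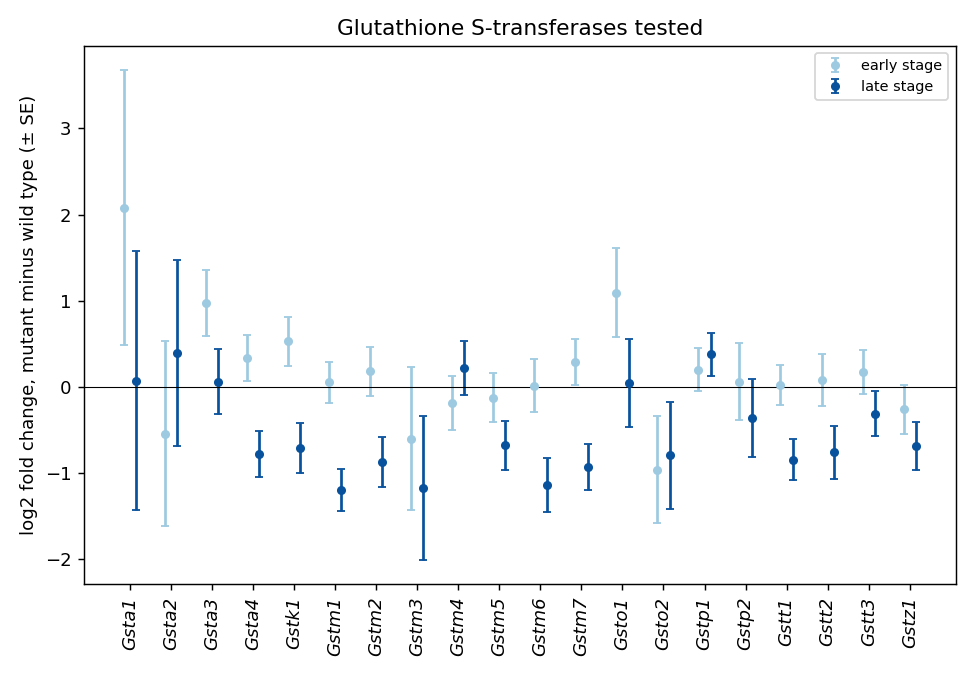
Log2 fold changes, mutant minus wild type, with standard errors for the 20 glutathione transferases tested, early in light blue and late in dark blue. The late values of Gstm1, Gstm6, Gstm7 and Gstt1, the 4 that passed, lie near -1, and their early values lie near 0.

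Sult2b1, which sulfates cholesterol and other sterols, was the enzyme with the smallest adjusted p when the genotype effect was averaged over both stages. It had 4.83, 9.23 and 6.52 CPM in early wild types and 3.44, 2.40 and 2.69 CPM in early mutants. Late, it had 6.72, 10.4 and 7.30 CPM in wild types and 2.41, 1.70 and 3.14 CPM in mutants. Its genotypes did not overlap at either stage. It fell 3.37-fold late (-1.75 ± 0.38, adjusted p = 0.014), stood at -1.27 ± 0.38 early (adjusted p = 0.224), and averaged over stages fell 2.85-fold (-1.51 ± 0.27, adjusted p = 0.00189). The averaged fall passed in all 20 alternatives with adjusted p up to 0.0103. The late fall was lost without late mutant replicate 1, late mutant replicate 2 or late wild type replicate 2, where the adjusted p reached 0.0629.

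The other sulfotransferases did not pass. Sult1a1 had 561, 723 and 711 CPM in late wild types and 431, 360 and 357 CPM in late mutants (-0.80 ± 0.26, adjusted p = 0.071). Sult5a1 had 16.1, 21.4 and 23.0 CPM in late wild types and 7.87, 11.1 and 9.88 CPM in late mutants (-1.07 ± 0.33, adjusted p = 0.0628). Both had separate groups late. All 5 sulfotransferases tested were below 0 late, with a median of -1.75, and 3 of 5 early. Of these, Sult4a1 (at most 2.05 CPM) and Sult6b1 (at most 0.777 CPM) were scarce, and their late groups overlapped. Across the 12 libraries the enzymes whose log2 CPM ran most like that of Sult2b1 were Aldh9a1 (Pearson r = 0.72), Cyp4f39 (0.69) and Gstt1 (0.69), a description over libraries that share genotype and batch.

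The genes of retinoic acid synthesis and clearance that passed a test, Aldh1a3, Adh7 and Cyp26b1, were higher in mutants. Aldh1a3, a retinal dehydrogenase, had 5.43, 7.43 and 8.53 CPM in early wild types and 12.9, 12.9 and 13.8 CPM in early mutants. Late, it had 5.74, 5.46 and 4.55 CPM in wild types and 12.3, 10.3 and 15.1 CPM in mutants. The groups were apart at both stages. It rose 2.39-fold late (1.26 ± 0.29, adjusted p = 0.0208), stood at 0.88 ± 0.29 early (adjusted p = 0.316), and rose 2.1-fold averaged over stages (1.07 ± 0.21, adjusted p = 0.00383). The averaged rise passed in all 20 alternatives, with adjusted p up to 0.0171, and the late rise in 15 of 21, with adjusted p up to 0.0937. The late rise was lost without late mutant replicate 1 or 3 or late wild type replicate 2 or 3. It was also lost with a replicate block and with the late libraries alone.

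Adh7, a class IV alcohol dehydrogenase with high activity on retinol, had 1.24, 3.96 and 2.19 CPM in early wild types and 5.03, 15.03 and 4.73 CPM in early mutants. Late, it had 1.18, 1.65 and 4.55 CPM in wild types and 6.84, 10.2 and 6.74 CPM in mutants. The groups were apart at both stages, and early mutant replicate 2 was well above the other early mutants. In early mutants, late mutants and late wild types, the library highest in Adh7 also had the highest summed corneal epithelium markers. In early wild types it did not. The part of epithelial RNA in the Adh7 values was not tested. Averaged over stages Adh7 rose 3.3-fold (1.72 ± 0.39, adjusted p = 0.0113), passing in all 20 alternatives with adjusted p up to 0.0323. By stage it did not pass (1.75 ± 0.55 early, adjusted p = 0.273; 1.69 ± 0.55 late, adjusted p = 0.0703).

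Among the more abundant enzymes of this route, Aldh1a1, the main cytosolic retinal dehydrogenase, had 159, 137 and 158 CPM in late wild types and 306, 197 and 262 CPM in late mutants without passing (0.75 ± 0.29, adjusted p = 0.107). Adh1 had 575, 1349 and 1100.5 CPM in late wild types and 615, 524 and 623 CPM in late mutants, with overlapping groups (-0.78 ± 0.32, adjusted p = 0.126). Adh5, the class III enzyme that also oxidises a formaldehyde adduct of glutathione, stood at -0.26 ± 0.24 late. Aldh1a2 stayed at or below 1.65 CPM in every library.

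Cyp26b1, a retinoic acid hydroxylase, had 0.197, 0.522 and 0.583 CPM in late wild types and 2.37, 2.83 and 2.43 CPM in late mutants. Early, it had 0.374, 2.07 and 1.98 CPM in wild types and 0.819, 0.628 and 0.588 CPM in mutants. The late groups were far apart and the early groups overlapped. It rose 5.85-fold late (2.55 ± 0.71, adjusted p = 0.0427) and stood at -1.12 ± 0.68 early (adjusted p = 0.614). It passed in 8 of 20 alternatives with adjusted p up to 0.101, and it never exceeded 95 counts in a library.

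Of 24 other genes listed for retinoid handling, 23 were tested and none passed early. Late, 3 passed (13%), all lower in mutants, beside 2.71% of all genes. Rdh10, the main retinol dehydrogenase of embryonic retinoic acid synthesis, had 39.8, 37.2 and 35.0 CPM in late wild types and 11.9, 18.2 and 16.6 CPM in late mutants (-1.26 ± 0.26, adjusted p = 0.01). Rarb, a retinoic acid receptor whose own gene responds to retinoic acid, had 17.4, 21.1 and 14.9 CPM in late wild types and 7.22, 7.497 and 7.29 CPM in late mutants (-1.28 ± 0.30, adjusted p = 0.0213). Rdh13 ranged from 20.7 to 127 CPM in late wild types and from 14.6 to 16.5 CPM in late mutants (-2.22 ± 0.56, adjusted p = 0.0343). The retinal reductase gene Dhrs3 (-1.09 ± 0.39, adjusted p = 0.0916) and Crabp2 (-1.72 ± 0.73, adjusted p = 0.136) did not pass. Averaged over stages 6 of the 23 passed (26.1%), 3 higher and 3 lower. Over all genes, 4.04% were higher and 2.81% lower. Rdh10, Rdh13 and Rarb were lower, and Rdh5 (1.07 ± 0.27, adjusted p = 0.0219), Crabp1 (2.34 ± 0.68, adjusted p = 0.0434) and Rbp3 (2.09 ± 0.60, adjusted p = 0.0441) were higher. Rdh5 and Rbp3 are known for the visual cycle of the retina, and all 3 were higher early at an unadjusted p of 0.05. Photoreceptor markers were higher in the same early mutant libraries, and their part in these values was not tested.

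**Figure D4:**
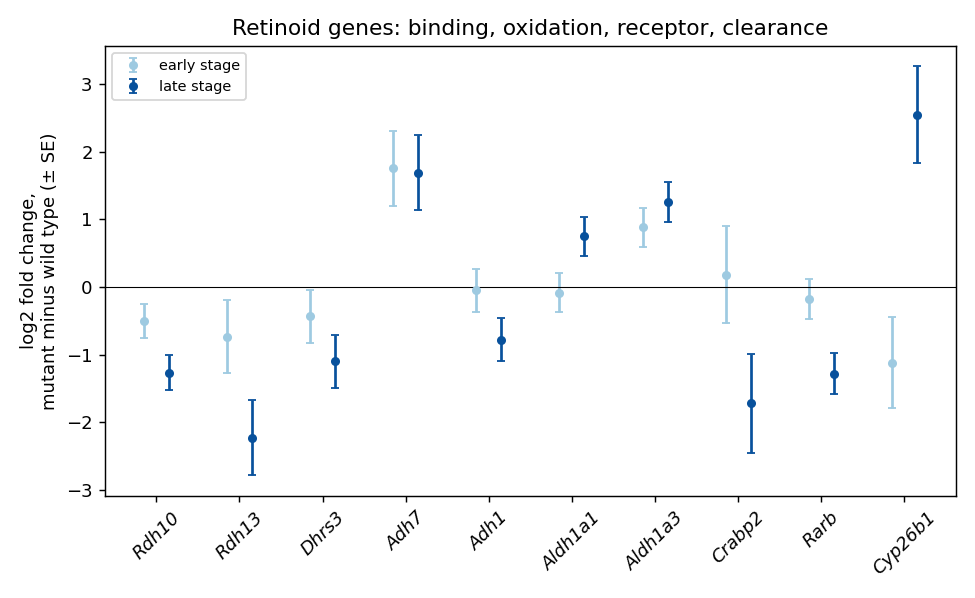
Log2 fold changes, mutant minus wild type, with standard errors for retinoid enzymes and partners in the order of the pathway, early in light blue and late in dark blue. Late, Aldh1a3 and Cyp26b1 passed above 0, while Rdh10, Rdh13 and Rarb passed below 0.

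Among the aldehyde-clearing dehydrogenases, Aldh3b1, which oxidises medium- and long-chain lipid aldehydes, had 27.6, 32.9 and 27.9 CPM in late wild types and 85.9, 44.98 and 51.5 CPM in late mutants. Early, wild types had 66.3, 45.3 and 43.6 CPM and mutants 53.3, 50.9 and 55.5 CPM. The late groups were apart, with late mutant replicate 1 highest, and the early groups overlapped. Aldh3b1 rose 2.06-fold late (1.04 ± 0.28, adjusted p = 0.0365) and stood at 0.04 ± 0.28 early (adjusted p = 0.963). It passed in 13 of 21 alternatives with adjusted p up to 0.18, and 4 of the late libraries (mutant replicates 1 and 3, wild type replicates 2 and 3) each ended the call when left out. So did leaving out early mutant replicate 1 or 3, a replicate block, and fitting the late libraries alone.

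Aldh3a1 had 2901, 3035 and 2172 CPM in early wild types and 3076, 3281 and 3309 CPM in early mutants. Late, it had 2579, 2053 and 1678 CPM in wild types and 4176, 2935 and 2727 CPM in mutants. The mutants were above the wild types at both stages, but Aldh3a1 did not pass at either (0.25 ± 0.25 early, adjusted p = 0.719; 0.64 ± 0.25 late, adjusted p = 0.117). Without late wild type replicate 1 the late value was 0.95 ± 0.25 (adjusted p = 0.0194). Aldh3a1 is also a keratocyte marker, and the summed FPKM of the 11 other keratocyte markers was 10736 to 14747 in late mutants and 8713 to 10515 in late wild types. Early, this sum overlapped, with 9328 to 10374 in mutants and 8988 to 11676 in wild types. The part of keratocyte RNA in the Aldh3a1 values was not tested. The mitochondrial Aldh2 (0.25 ± 0.31 late) and the fatty aldehyde dehydrogenase Aldh3a2 (0.42 ± 0.30 late) did not pass.

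Of the 9 aldehyde dehydrogenases of intermediary metabolism, 1 passed late (11.1%), lower in mutants, beside 2.71% of all genes. Aldh9a1, which oxidises aminobutyraldehyde and an intermediate of carnitine synthesis, had 41.7, 47.4 and 41.8 CPM in late wild types and 16.5, 25.2 and 24.8 CPM in late mutants. Early, its groups overlapped, from 28.7 to 31.6 CPM in wild types and from 19.5 to 34.1 CPM in mutants. It fell 1.97-fold late (-0.98 ± 0.27, adjusted p = 0.0399), against -0.12 ± 0.27 early, and passed in 8 of 21 alternatives with adjusted p up to 0.163. Aldh18a1, the pyrroline-carboxylate synthase of proline synthesis, had 24.2, 21.1 and 22.2 CPM in late mutants and 15.7, 13.6 and 10.2 CPM in late wild types without passing (0.77 ± 0.28, adjusted p = 0.091). Aldh1l2, the mitochondrial formyltetrahydrofolate dehydrogenase, had 1.48, 4.22 and 1.39 CPM in late mutants and at most 0.557 CPM in late wild types, without passing (2.70 ± 1.29, adjusted p = 0.177).

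Of 24 cytochromes P450 of families 1 to 4 tested, 1 passed late (4.17%), higher in mutants, beside 2.77% of all genes. Cyp2u1, which hydroxylates long-chain fatty acids, had 1.97, 1.16 and 1.17 CPM in late wild types and 5.05, 3.18 and 5.67 CPM in late mutants, and early from 1.19 to 2.73 CPM in wild types and from 1.79 to 2.19 CPM in mutants. It rose 3.22-fold late (1.69 ± 0.47, adjusted p = 0.043), against 0.12 ± 0.46 early, and passed in 10 of 20 alternatives with adjusted p up to 0.145. The 7 Cyp4f genes tested, omega-hydroxylases of leukotrienes and fatty acids, were all below 0 early and 6 were below 0 late, with medians of -0.94 and -1.40, and none passed. Cyp4f39, an acylceramide hydroxylase, had 0.487, 0.703 and 0.799 CPM in early wild types and 0.300, 0.191 and 0.433 CPM in early mutants. Late, Cyp4f39 had 1.11, 0.883 and 1.32 CPM in wild types and 0.0344, 0.565 and 0.194 CPM in mutants, with no overlap at either stage (-2.04 ± 0.96 late, adjusted p = 0.172). Several of these values are a few counts, and Cyp2, Cyp3 and Cyp4 genes lie in paralog clusters, so reads could be split between them.

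Other cytochromes P450 did not pass in any comparison. Cyp1b1, an estrogen and retinoid hydroxylase, ranged from 0.15 to 2.53 CPM, with overlap at both stages. Cyp4v3, the mouse counterpart of the human Bietti corneoretinal dystrophy gene, stood at 0.75 ± 0.48 late (adjusted p = 0.314). Cyp2s1 stood at -0.13 ± 0.83 late. Of the sterol enzymes, Cyp27a1 stood at -0.64 ± 0.35 (adjusted p = 0.239), Cyp7b1 at -0.75 ± 0.51 (adjusted p = 0.34) and Cyp39a1 at -0.21 ± 0.38 (adjusted p = 0.75) late.

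Epoxide hydrolases and flavin monooxygenases held no call either. Ephx1 had 233, 551 and 448 CPM in late wild types and 345, 228 and 266 CPM in late mutants, with overlapping groups (-0.56 ± 0.34, adjusted p = 0.288). Ephx2, the soluble hydrolase of fatty acid epoxides, stood at 0.59 ± 0.31 early and 0.65 ± 0.31 late, and its average over stages did not pass (0.62 ± 0.22, adjusted p = 0.0949). Fmo1 (0.33 ± 0.41), Fmo2 (-0.15 ± 0.46) and Fmo5 (0.03 ± 0.29) showed small late differences against their errors.

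The genotype effects were then compared between stages. The difference, late minus early, passed for 0 of the 87 enzymes by edgeR, beside 0.00557% of all genes, and 14 had an unadjusted p under 0.05. DESeq2's Wald test called 2, Cyp26b1 (3.64 ± 0.96, adjusted p = 0.0195) and Gstm1 (-1.27 ± 0.33, adjusted p = 0.0189), and limma-voom called Gstm1. In edgeR, Gstm1 stood at -1.25 ± 0.34 and Cyp26b1 at 3.66 ± 0.98, each with an adjusted p of 0.156. Without late wild type replicate 1, Gstm1 (-1.32 ± 0.29, adjusted p = 0.0402) and Gstm7 (-1.36 ± 0.31, adjusted p = 0.0457) passed. Over all genes, the difference was called for 314 by DESeq2's Wald test and 91 by limma-voom. Without late wild type replicate 1 it was called for 199 of 19241. A late call beside no early call is therefore not shown to be a change with stage for the enzymes named above.

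Averaged over stages, Aldh1a3 and Adh7 were higher (2.3% of the enzymes tested, beside 4.04% of all genes) and Sult2b1 and Gstm1 lower (2.3%, beside 2.81% of all genes), so the shares were not above those over all genes. Gstm1 passed at -0.57 ± 0.17 (adjusted p = 0.0492), and in 6 of 20 alternatives, with adjusted p up to 0.21; leaving out any library other than late wild type replicate 1 ended that call. Libraries were apart at both stages in the same direction for 3 enzymes higher in mutants, Adh7, Aldh1a3 and Aldh3a1 (3.45%, beside 3.89% of all genes), and for 2 lower, Sult2b1 and Cyp4f39 (2.3%, beside 2.03% of all genes).

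**Figure D5:**
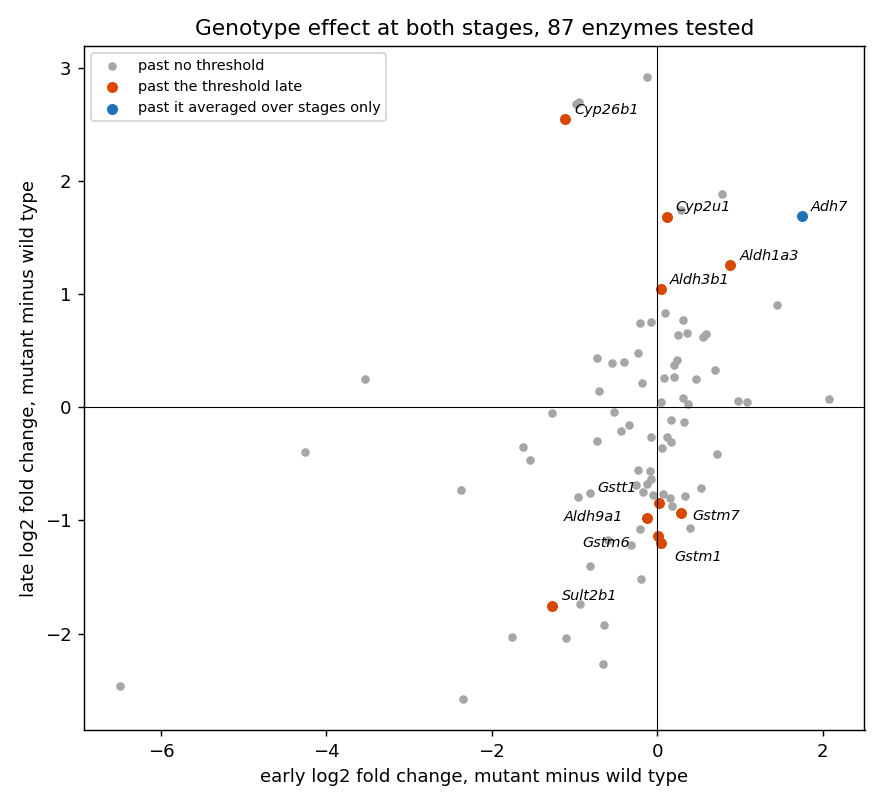
Late against early log2 fold change, mutant minus wild type, for the 87 enzymes tested, with 1 point per gene. The 4 Gst genes that passed late lie near 0 on the early axis and near -1 on the late axis, whereas Aldh1a3, Adh7 and Sult2b1 have the same sign on both axes.

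Among 47 other genes listed as xenobiotic regulators and suppliers of cofactors, 43 were tested and none passed early. Late, 2 passed (4.65%), both higher in mutants, beside 2.77% of all genes. Papss2, which makes the sulfate donor of the Sult enzymes, had 2.33, 1.65 and 2.10 CPM in late wild types and 6.498, 6.60 and 4.66 CPM in late mutants (1.55 ± 0.41, adjusted p = 0.0365). Abcc3, an exporter of conjugates, had 0.164, 0.321 and 0.738 CPM in late wild types and 3.44, 2.53 and 2.88 CPM in late mutants (2.85 ± 0.69, adjusted p = 0.0241). The regulators Ahr (0.88 ± 0.29, adjusted p = 0.0736) and Nfe2l2 (-0.56 ± 0.26, adjusted p = 0.16) did not pass late. Neither did Nqo1, a common target of both (0.44 ± 0.27, adjusted p = 0.286), Por, the electron donor of microsomal cytochromes P450 (0.49 ± 0.27, adjusted p = 0.229), or Gclc of glutathione synthesis (-1.55 ± 0.74, adjusted p = 0.193).

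Promoters were searched for response elements that xenobiotic and retinoid genes are known for. RefSeq promoters of build GRCm38.p6, spanning 250 bases before to 50 bases after each transcript start, were found for 151 of the 186 enzymes. On both strands, TGACNNNGC, the core of the antioxidant response element bound by Nfe2l2, was in 13.99% of all genes with a promoter and in 14.7% of the 68 enzymes that were tested and had one. GCGTG, the core bound by Ahr with its partner, was in 35.2% of all genes and 33.8% of those 68. The direct repeat 5 element of retinoic acid receptors was in 0.0111% of all genes and in 0 of the enzymes. The first motif was found in 2 and the second in 3 of the 6 enzymes lower late, and none in Aldh3b1 and Cyp26b1, the 2 enzymes higher late that had a promoter. These are matches of letters and not binding sites. The promoters shown are those of the late-lower enzymes with a match, 5′ to 3′ on the strand of the gene, with the matching letters in capitals. They lie at chr3:108017924-108018223 (minus strand) for Gstm1, chr3:107931565-107931864 (minus) for Gstm7, chr7:45742429-45742728 (minus) for Sult2b1 and chr1:167349741-167350040 (plus) for Aldh9a1.
Gstm1: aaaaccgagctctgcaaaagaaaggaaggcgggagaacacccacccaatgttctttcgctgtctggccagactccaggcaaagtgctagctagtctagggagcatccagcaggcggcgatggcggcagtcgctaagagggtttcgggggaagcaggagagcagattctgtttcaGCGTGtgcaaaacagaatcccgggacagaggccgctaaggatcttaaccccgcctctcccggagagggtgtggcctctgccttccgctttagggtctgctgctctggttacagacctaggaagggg
Gstm7: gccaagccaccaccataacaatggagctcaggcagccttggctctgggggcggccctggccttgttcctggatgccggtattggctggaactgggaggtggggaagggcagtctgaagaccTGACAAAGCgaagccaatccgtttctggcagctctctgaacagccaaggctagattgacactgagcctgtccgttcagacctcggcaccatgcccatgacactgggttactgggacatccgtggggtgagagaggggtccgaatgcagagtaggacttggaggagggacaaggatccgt
Sult2b1: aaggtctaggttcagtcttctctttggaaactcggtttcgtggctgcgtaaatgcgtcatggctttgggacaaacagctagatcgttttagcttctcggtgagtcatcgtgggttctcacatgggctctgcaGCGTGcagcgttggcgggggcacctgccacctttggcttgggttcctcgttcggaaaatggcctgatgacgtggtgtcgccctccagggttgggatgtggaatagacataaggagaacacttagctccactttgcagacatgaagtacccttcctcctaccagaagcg
Aldh9a1: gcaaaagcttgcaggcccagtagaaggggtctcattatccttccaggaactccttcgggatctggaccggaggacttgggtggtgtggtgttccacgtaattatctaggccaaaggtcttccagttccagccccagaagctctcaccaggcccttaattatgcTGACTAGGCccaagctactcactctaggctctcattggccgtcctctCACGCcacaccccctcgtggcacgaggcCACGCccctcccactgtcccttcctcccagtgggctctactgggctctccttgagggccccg
The Gstm1 match is GCGTG, with its first base at position -76 from the start, and lies also in the promoter of its other start. Gstm7 holds a match to the antioxidant core at position -129 from this start and none in the promoter of its other start. Sult2b1 holds GCGTG at position -118 from this start, and its other promoter, of a start at another place, also holds it. Aldh9a1 holds the antioxidant core at position -87 and the reverse complement of GCGTG at 2 places. Gstm6 and Gstt1, which also fell late, held no match in these windows.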

How the data were processed

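RNA-seq libraries of mouse corneal endothelium were analysed in 4 groups of 3 (12 libraries), grouped by the labels. The authors deposited whole-number counts per gene and FPKM values, per the file headers. Per the submitters' processing notes, the tools were fastp, HISAT2, HTSeq and DESeq2 (no versions), with build GRCm39. Libraries were made with a strand-keeping kit, per the labels' protocols, but the sources used here do not give the strand setting of the counting or any adjustment between batches, so overlapping and antisense genes may share reads. The authors' deposited comparison tables were not used here.

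Counts were tested with edgeR 4.0.16 (R 4.3.3): TMM scaling, filterByExpr on the 4 groups (17965 of 32761 genes kept, 14796 removed), robust dispersions and a single quasi-likelihood model of the 4 groups (8 residual degrees of freedom). It tested the genotype effect at each stage, the difference between stages and the mean over stages, with Benjamini-Hochberg adjustment over all genes tested and a threshold of 0.05. Log2 fold changes are mutant minus wild type, with standard errors from the F statistic. The common biological coefficient of variation was 0.464. CPM values are after TMM scaling, and the level of 3 counts covers counting error only. Deposited FPKM was used to compare levels between genes. The code was tested on simulated data.

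The enzymes, their roles, the partner and marker lists and the alternatives were chosen with earlier results of these data known. Named genes were those past the threshold, a listed panel, the 10 with the highest mean FPKM, the highest of each role and those whose genotypes did not overlap at both stages. Gstm3, Gstm4, Gstt2, Sult4a1, Sult6b1, Cyp26a1, Adh6b and Cyp8b1 fall outside these and were named after their values were seen. Alternatives were DESeq2 size factors, DESeq2's Wald test (1.42.0), limma-voom (3.58.1), no filter, a filter of 5 CPM in 3 libraries, only protein-coding genes, a replicate block, each stage by itself, and leaving out each library in turn or, jointly, late wild type replicate 1 and early wild type replicate 2. Gene order and promoters came from RefSeq tables of GRCm38.p6, all 186 enzymes matching the gene table. Proteins were not analysed here, and 1 listed partner gene is not reported here.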

Additional observations from a re-analysis of the deposited data

Results flagged for a closer look

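Every mutant library lay above all wild types for Gstk1 early and below all wild types late. Early mutants had 48.9, 44.4 and 40.4 CPM against 35.3, 21.0 and 36.4 CPM in early wild types, and late mutants had 23.0, 21.6 and 36.6 CPM against 38.8, 52.6 and 41.4 CPM in late wild types. The effect was thus 0.53 ± 0.28 (log2, SE) early and -0.71 ± 0.28 late, and the difference of -1.24 ± 0.40 had an adjusted p of 0.222 by edgeR, which did not pass. Stage and batch cannot be told apart in this difference.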

How the results depend on the processing

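No value changed direction among those that had passed. For the early effect, 0 enzymes passed in the main analysis, and 2 passed with no filter on low counts, Adh7 (1.83, adjusted p = 0.00402) and Gsto1 (1.16, adjusted p = 0.0247), both higher; it was 0 whichever library was left out. For the late effect, with 10 enzymes, the count was 2 with the late libraries alone and 19 with DESeq2's Wald test (7 higher, 12 lower). It was 1 to 27 with a library left out, the 27 without late wild type replicate 1. Without late wild type replicate 1 and early wild type replicate 2 it was 27. Over all genes, late calls moved from 983 to 489 with the late libraries alone and 2460 with DESeq2's Wald test. They were 229 to 3909 with a library left out and 4371 without both named libraries. DESeq2 size factors gave 8 (4 higher, 4 lower), limma-voom 14 (3 higher, 11 lower) and the filter of 5 CPM 8 (2 higher, 6 lower). Over all genes these gave 1007 of 17965, 1728 of 17965 and 954 of 10318. With the replicate block 0 passed early, 3 late (Gstm1, Sult2b1 and Adh7), 0 in the difference and 3 in the mean. Over all 17965 genes it called 106 early, 456 late, 2 in the difference and 782 in the mean. Same-numbered replicates hardly deviated together from their group means (r from -0.0878 to 0.0813). With 3 libraries per group this cannot exclude a pairing, and the main model used none. For the difference, 0 enzymes passed, against 2 with DESeq2's Wald test, 1 with limma-voom and 0 to 2 with a library left out, the 2 without late wild type replicate 1. For the mean effect, with 4 enzymes, the count was 7 with no filter, 8 with DESeq2's Wald test, 12 with limma-voom, 19 without late wild type replicate 1 and early wild type replicate 2, and 3 to 14 with a library left out, the 14 without late wild type replicate 1. The cause of these moves was not tested, except that leaving out libraries leaves fewer samples.

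Without late wild type replicate 1, 11 further named enzymes passed late: Aldh3a1 (0.95), Aldh1a1 (0.92), Aldh2 (0.84), Aldh3a2 (1.01) and Aldh18a1 (1.05) were higher, and Adh1 (-0.93), Gsta4 (-0.84), Gstm2 (-1.02), Gstm5 (-0.78), Sult1a1 (-0.78) and Sult5a1 (-1.08) lower, on the log2 scale. Over all genes, 3909 of 19241 passed late without that library. Of the 99 enzymes removed by the filter, 52 never exceeded 10 counts.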

Other observations

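Early wild type replicate 2 stood apart at low counts. Of the 99 enzymes that the filter removed, 96 had a count in this library, the shallowest of the 12, against 13 to 34 in the others. Cyp8b1, the sterol hydroxylase of cholic acid synthesis and the enzyme with the most counts among those removed, reached 98 counts (4.31 CPM) there and at most 0.449 CPM in any other library. Over all 14796 genes removed, 91.9% had a count in this library and 16.2% to 36.9% in each other library.

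Beyond the enzymes named above, runs of neighbouring enzyme genes moved to different degrees. Of 186 enzymes, 127 lie in 32 runs of neighbouring enzyme genes in the RefSeq order. The run of Adh7, Adh1, Adh6a, Adh6b, Adh4 and Adh5 held a gene that was higher averaged over stages, Adh7, beside Adh6b, which had 57.3, 54.2 and 54.9 CPM in late mutants and 66.1, 104 and 111 CPM in late wild types without passing (-0.75 ± 0.27, adjusted p = 0.0935). Across the 12 libraries the enzymes most like Gstm1 in log2 CPM, looked up after its values were seen, were Gstt1 (Pearson r = 0.96), Gstm7 (0.92) and Gstm6 (0.88). Gstt1 is not a neighbour of the mu-class run in this gene order.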
